A study of Homo sapiens with 6 samples.

Results

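Mitochondrial ribosomal protein genes encode, in the nucleus, the protein part of the ribosome that works inside mitochondria. They were taken as the genes whose symbol is MRPL or MRPS followed by a number and at most a letter A to C, in loci that name a single gene. This gave 62 genes of 26341 single-gene loci in the table. Polyadenylated RNA of MDA-MB-231, an established human triple-negative breast cancer cell line, was sequenced in 6 libraries, 3 labelled mimic and 3 labelled control. A mimic is a short synthetic RNA that stands in for a microRNA. The series title names miR-5001-5p, while the group labels give neither oligonucleotide's sequence and do not say what the control libraries, titled minic_nc, received. Nothing in the labels places the replicates in separate cultures, so p-values measure only the spread between these libraries, which may be technical.

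The mitochondrial ribosome translates the few messenger RNAs of the mitochondrial genome, all of which encode subunits of the oxidative phosphorylation complexes. Its ribosomal RNAs come from the mitochondrial genome and its proteins are made in the cytosol and imported. Some of these proteins descend from bacterial ribosomal proteins, and others are found in mitochondria alone, where they stand in for or surround the shortened ribosomal RNA. The small subunit holds the messenger RNA and the decoding site, and the large subunit joins the amino acids and is anchored to the inner membrane.

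Libraries held 31643826 to 32363456 counts. Across genes, log2 counts scaled to library size correlated at 0.985 to 0.987 within groups and at 0.976 to 0.978 between groups. All 7 genes of a marker list for this cell line were measured. Their summed level was 1070 to 1113 FPKM (fragments scaled to locus length and library total) in control and 1505 to 1577 FPKM in mimic libraries. All 7 were called higher in mimic libraries by the test described below, against 13.6% of all tested loci. The epithelial markers CDH1 and EPCAM stayed at or under 0.210 FPKM. The 3 fibroblast markers measured summed to at most 0.389 FPKM, and PTPRC, the only blood marker measured, reached 0.0441 FPKM. COL1A2, DCN, CD68, CD3E, ESR1 and PGR were also planned as markers and have no value here. The summed luminal epithelial markers, mostly KRT19, were 82.1 to 89.5 FPKM in control and 82.6 to 86.5 FPKM in mimic libraries. The part of the shift in the cell-line markers in any result below was not tested.

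Most mitochondrial ribosomal protein genes had nearly the same RNA level with mimic as with control. All 62 passed the filter on low values (FPKM of at least 1 in at least 3 libraries), and 8 passed the test (edgeR's quasi-likelihood test, Benjamini-Hochberg adjusted p under 0.05 over 11260 loci), 5 higher and 3 lower. Over all tested loci 22.3% passed, against 12.9% of these genes. The higher calls were 13.6% and the lower calls 8.63% of all tested loci. The larger changes were in MRPS14, MRPS35 and MRPL35, which rose by 1.46, 1.16 and 0.81 on the log2 scale. The other called genes moved by 0.40 or less. Fewer cells and less RNA per cell cannot be told apart in such bulk samples.

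The median log2 fold change, mimic minus control, was 0.01 over the 62 genes and -0.01 over all tested loci. Of the 62 values 32 were above 0 and 30 below, and 46 lay within 0.2 of 0. In 14 genes (22.6%) every mimic library was above every control library after scaling, and in 6 genes (9.68%) every mimic library was below. Over all tested loci these shares were 21.8% and 20.3%. The 62 genes together took 0.300, 0.306 and 0.299% of counts in the control libraries and 0.283, 0.294 and 0.299% in the mimic libraries, so the groups overlapped. Their summed level was 1367 to 1402 FPKM in control and 1291 to 1373 FPKM in mimic libraries. FPKM are scaled to library totals and fold changes by TMM, a trimmed mean over genes. Scaled to totals, the median of all tested loci was -0.09, so small falls in FPKM can stand beside log2 fold changes near 0.

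**Figure D1:**
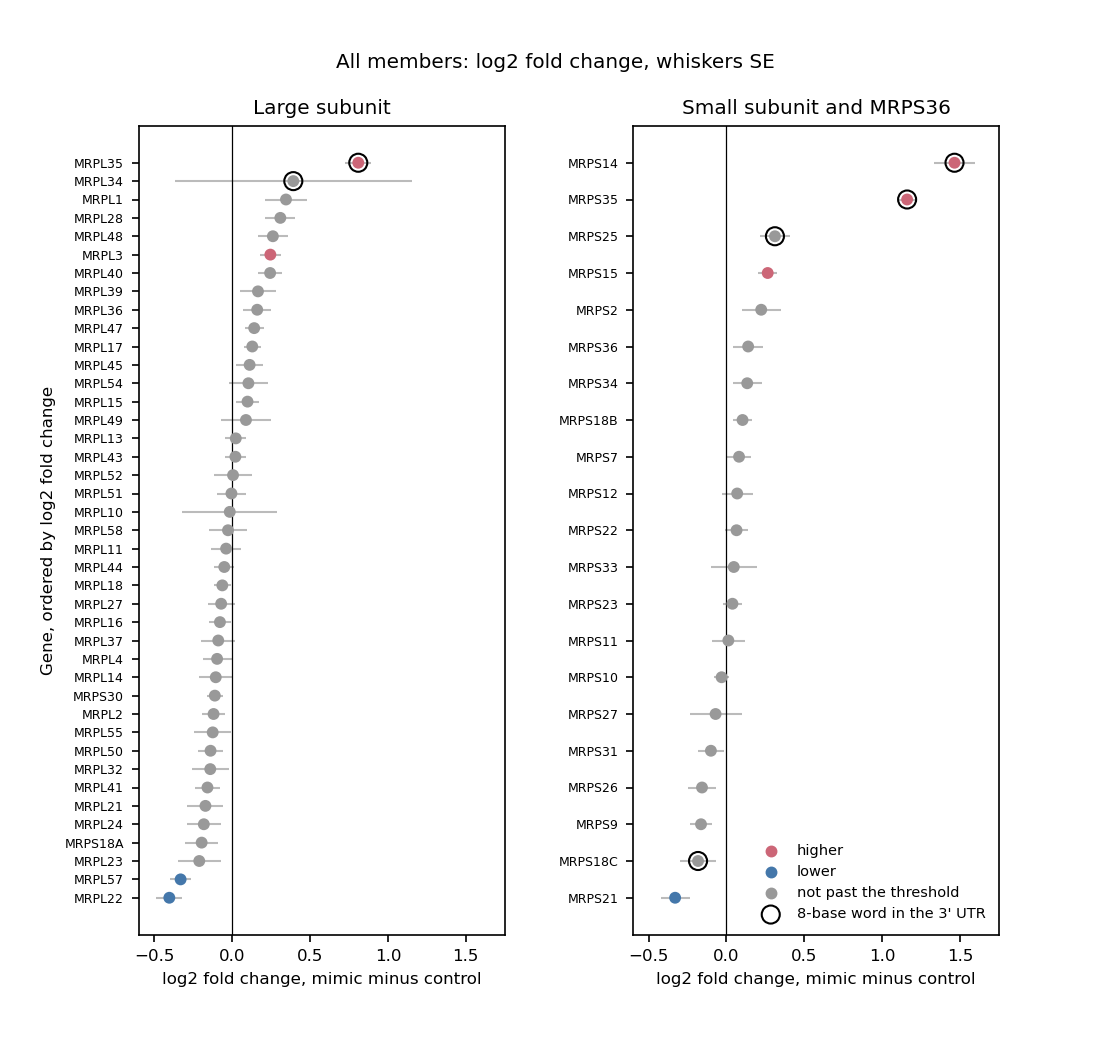
Log2 fold change, mimic minus control, of the 62 mitochondrial ribosomal protein genes, split into the large subunit and the small subunit with MRPS36, with whiskers for the standard error, colours for genes past the threshold and rings for genes whose 3′ UTR holds the 8-base word AGTACAAA, described with MRPL35. Values run from -0.40 for MRPL22 to 1.46 for MRPS14, and 46 genes lie within 0.2 of 0.

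MRPS14, a small subunit protein with a bacterial counterpart, had the largest fold change. Its level was 2.18, 2.27 and 2.25 FPKM in the control libraries and 5.07, 5.83 and 6.62 FPKM in the mimic libraries. Every mimic library lay above every control library, and in control libraries it had the lowest level of the 62 genes. It rose 2.76-fold (log2 fold change 1.46 ± 0.13 SE, n = 3 and 3, adjusted p = 0.000579, edgeR). The counts behind these levels were 183, 189 and 185 in control and 422, 482 and 553 in mimic libraries.

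MRPS35, a small subunit protein found in mitochondria alone, was at 19.0, 20.2 and 18.8 FPKM in control and at 41.5, 41.8 and 39.6 FPKM in mimic libraries. The lowest mimic library was far above the highest control library. It rose 2.23-fold (log2 fold change 1.16 ± 0.06 SE, adjusted p = 7.66e-05, edgeR), the smallest adjusted p of the 62 genes. Only 1.33% of all tested loci passed the test with a rise of at least 2-fold, and MRPS14 and MRPS35 were among them.

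MRPL35, a large subunit protein with a bacterial counterpart, is known in budding yeast for a role in cytochrome oxidase assembly. It stood at 6.54, 5.74 and 6.59 FPKM in control and at 10.96, 9.95 and 10.4 FPKM in mimic libraries. The groups did not overlap, and the log2 fold change was 0.81 ± 0.08 SE (adjusted p = 0.00106, edgeR), a rise of 1.752-fold.

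The annotated 3′ untranslated regions (3′ UTRs) of these 3 genes hold the 8-base word AGTACAAA. It joins the 7-base words AGTACAA and GTACAAA, which an earlier scan of fold changes in these same data picked out, so the match is a description and not independent support. The stretches are printed 5′ to 3′ on the transcript's strand with the word in capitals. They show where these 3 genes hold it and come from GENCODE 29 on GRCh38.
MRPS14, chr1:175014424-175014453, minus strand: ttcccatacatAGTACAAAgagtagcataa
MRPS35, chr12:27755339-27755368, plus strand: agaaattgaagAGTACAAAaagtctgttgt
MRPS35, chr12:27755399-27755428, plus strand: ttccatttctcAGTACAAAgaatccgtgaa
MRPL35, chr2:86210729-86210758, plus strand: aaaaatggataAGTACAAAacttgatgtaa
The MRPS14 site lies in the 3′ UTR of its only basic coding transcript. Of the 2 such MRPS35 transcripts, 1 has both sites in its 3′ UTR and 1 reads them as coding sequence. Of 4 MRPL35 transcripts, 2 have the site in the 3′ UTR and 2 lack it. The table is per locus, so which transcript was present was not tested.

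**Figure D2:**
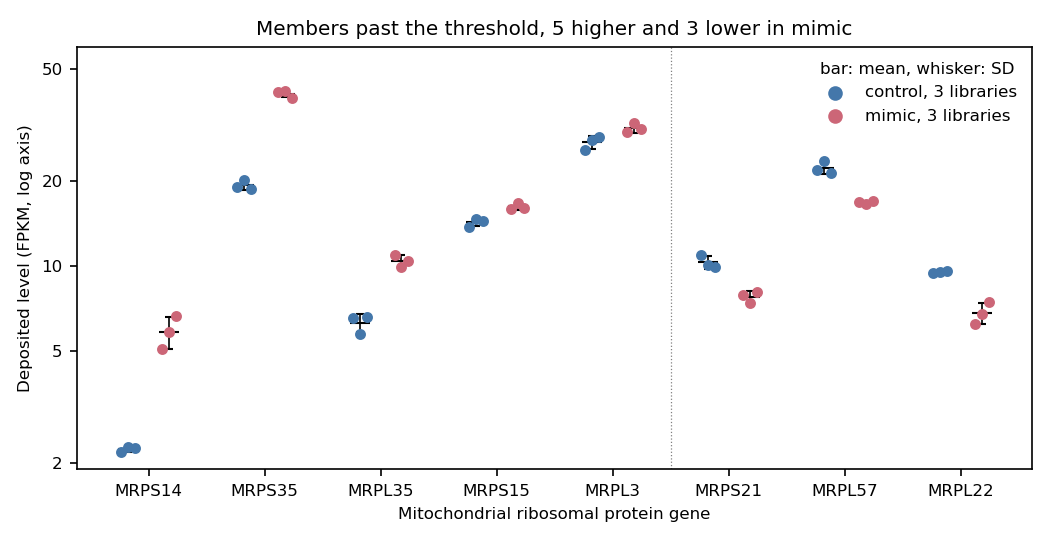
Level in FPKM, on a log axis, of the 8 mitochondrial ribosomal protein genes past the threshold, a point per library, a bar for the group mean and whiskers for the SD. MRPS35 goes from 18.8 to 20.2 FPKM in control to 39.6 to 41.8 FPKM in mimic libraries, and the groups do not overlap for MRPL3 or MRPS15, whose means differ least.

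The remaining higher genes rose by smaller amounts. MRPS15, a small subunit protein that binds ribosomal RNA, was at 13.8, 14.7 and 14.4 FPKM in control and at 16.0, 16.8 and 16.1 FPKM in mimic libraries. MRPL3, a large subunit protein near the site of peptide bond formation, was at 25.9, 28.0 and 28.8 FPKM in control and at 29.96, 32.3 and 30.7 FPKM in mimic libraries. The groups did not overlap for either gene. MRPS15 rose by 0.27 ± 0.06 (SE) on the log2 scale (adjusted p = 0.025, edgeR) and MRPL3 by 0.24 ± 0.07 (adjusted p = 0.0386). Neither call was stable when libraries were left out. MRPL3 lost it when each of the 6 libraries was left out in turn, with adjusted p up to 0.11 over all alternatives, and MRPS15 in 5 of those 6 cases, with adjusted p up to 0.0863.

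The 3 lower genes all fell by a modest amount. MRPL22, a large subunit protein that lines the tunnel through which the new chain leaves, was at 9.43, 9.50 and 9.61 FPKM in control and at 6.24, 6.75 and 7.45 FPKM in mimic libraries. The control libraries lay close together and above every mimic library. It fell by 0.40 on the log2 scale (SE 0.08, adjusted p = 0.0151, edgeR), and without control replicate 3 the adjusted p was 0.0523.

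MRPL57, a large subunit protein found in mitochondria alone, was at 21.9, 23.6 and 21.5 FPKM in control and at 16.9, 16.6 and 17.0 FPKM in mimic libraries, with no overlap. It fell by 0.33 on the log2 scale (SE 0.07, adjusted p = 0.0138, edgeR). MRPS21, a small subunit protein with a bacterial counterpart, was at 10.98, 10.1 and 9.96 FPKM in control and at 7.92, 7.398 and 8.06 FPKM in mimic libraries. The groups did not overlap, and it fell by 0.33 (SE 0.09, adjusted p = 0.0451), a call lost when each of the 6 libraries was left out in turn.

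Split by place in the ribosome, the large subunit had 41 genes, of which 2 rose and 2 fell, with a median log2 fold change of -0.03. The small subunit had 20 genes, of which 3 rose and 1 fell, with a median of 0.06. MRPS30 and MRPS18A were counted with the large subunit, where their proteins sit despite the S in their names. MRPS36 was counted in neither, since its protein is assigned to the α-ketoglutarate dehydrogenase complex. Split by origin, 33 genes with a bacterial counterpart gave 4 higher and 2 lower calls with a median of -0.02, and 25 genes particular to mitochondria gave 1 higher and 1 lower call with a median of 0.02. The 4 genes not classed by origin (MRPL55, MRPS18A, MRPS18B and MRPS36) had no call. The share called in either direction was 20% in the small subunit and 9.76% in the large subunit. It was 18.2% among genes with a bacterial counterpart and 8% among those particular to mitochondria, against 22.3% over all tested loci. Higher calls alone were 13.6% and lower calls 8.63% of all tested loci. With both splits crossed, 10 small subunit genes had a bacterial counterpart, and 3 of them were called (30%), 2 higher and 1 lower. No test of a difference between these classes was made.

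Of the genes named for their roles, MRPL45, MRPL58, MRPS12 and MRPS36 did not pass the test. MRPL45, which docks the large subunit at the inner membrane, stood at a log2 fold change of 0.11 ± 0.09 (SE, adjusted p = 0.398, edgeR). MRPL58, a peptidyl-tRNA hydrolase that became part of the ribosome, had -0.03 ± 0.12 (adjusted p = 0.9). MRPS12, at the decoding site, had 0.07 ± 0.10 (adjusted p = 0.659), and MRPS36 had 0.14 ± 0.10 (adjusted p = 0.351). The sign of the MRPS12 value was negative when scaled to library totals, at -0.010.

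The 3 MRPS18 genes encode related proteins, of which MRPS18A sits in the large subunit and MRPS18B and MRPS18C in the small subunit. MRPS18A was at 31.4, 34.8 and 28.3 FPKM in control and at 24.96, 24.7 and 28.6 FPKM in mimic libraries. MRPS18B was at 53.7, 55.7 and 49.6 FPKM in control and at 53.0, 53.6 and 55.2 FPKM in mimic libraries. MRPS18C was lowest, at 4.54, 4.65 and 4.39 FPKM in control and at 3.6, 3.40 and 4.33 FPKM in mimic libraries. In FPKM the groups overlapped for MRPS18A and MRPS18B, and for MRPS18C the highest mimic library came close to the lowest control library. After TMM scaling the groups overlapped for MRPS18C as well. The log2 fold changes of MRPS18A, MRPS18B and MRPS18C were -0.20 ± 0.11, 0.10 ± 0.06 and -0.18 ± 0.11 (SE), with adjusted p of 0.235, 0.278 and 0.3 (edgeR).

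A further 5 genes lay just outside the threshold, named after their values were seen. Their log2 fold changes were 0.31 for MRPS25 (adjusted p = 0.0597, edgeR), 0.31 for MRPL28 (adjusted p = 0.0626), 0.24 for MRPL40 (adjusted p = 0.0636), 0.26 for MRPL48 (adjusted p = 0.0944) and 0.35 for MRPL1 (adjusted p = 0.109). DESeq2 called MRPS25 and MRPL28 higher (adjusted p = 0.0282 and 0.0239), quantile normalization with limma called MRPL40 higher (adjusted p = 0.0452), and edgeR without mimic replicate 1 called MRPL28 higher (adjusted p = 0.032). No other alternative called any of these 5 genes.

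Levels per length differed widely between genes whose proteins are generally held at a single copy per ribosome. The highest mean over 6 libraries was 90.8 FPKM for MRPS10, a small subunit protein with a bacterial counterpart, at 94.2 ± 2.10 (SD, n = 3) in control and 87.4 ± 3.90 in mimic libraries. MRPL14, MRPS34 and MRPS18B followed at 82.9, 77.8 and 53.4 FPKM. The lowest was MRPS33, at 2.68 FPKM over a locus length of 5262 bases, a 34.0-fold span. The median gene had a mean of 15.9 FPKM, against 6.41 FPKM over all tested loci. FPKM depend on the length given to a locus, and that length includes long 3′ UTRs where they are annotated.

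**Figure D3:**
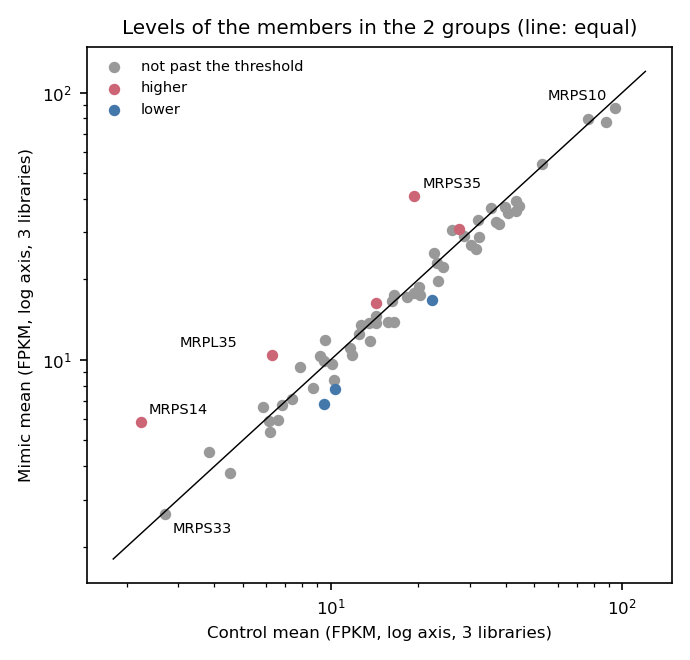
Mean FPKM in mimic against control libraries for the 62 genes, both on log axes. MRPS14, MRPS35 and MRPL35 lie above the line of equal levels, and MRPS10 and MRPS33 mark the highest and lowest means, 90.8 and 2.68 FPKM.

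Levels were steady across libraries in most genes. The highest library over the lowest had a median of 1.30 over the 62 genes and 1.40 over all tested loci, and 52 of the 62 stayed under 1.5. This ratio spans both groups, so it also holds any change with mimic. The 62 genes had a higher median level than all tested loci (15.9 against 6.41 FPKM), and its part in the ratio was not tested. MRPL34 and MRPL10, named after their values were seen, swung widely within groups. MRPL34, a large subunit protein with a bacterial counterpart, had 707, 719 and 134 counts in control and 263, 372 and 1294 counts in mimic libraries. Control replicate 3 was lowest and mimic replicate 3 highest, a 9.49-fold span of FPKM, and the log2 fold change was 0.39 ± 0.76 (SE, adjusted p = 0.749, edgeR).

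The next gene downstream of MRPL34 on the same strand is DDA1, which starts 2674 bases after the MRPL34 locus (chr19:17292609-17306843, GRCh38) ends. DDA1 had 1302, 1303 and 1879 counts in control and 1113, 684 and 1101 counts in mimic libraries. Added together, the loci gave 2009, 2022 and 2013 counts in control, which are nearly equal, and 1376, 1056 and 2395 counts in mimic libraries, which are not. ABHD8, on the opposite strand, overlaps both the MRPL34 locus and the start of DDA1. Without stated strandedness, reads of these genes cannot be told apart where they overlap. MRPL10, a stalk protein of the large subunit, had 1510, 1622 and 1720 counts in control and 1142, 2363 and 1042 counts in mimic libraries. Mimic replicate 2 stood above all others, and without it MRPL10 was called lower, with a log2 fold change of -0.50 (adjusted p = 0.0235) in place of -0.02 (adjusted p = 0.978).

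**Figure D4:**
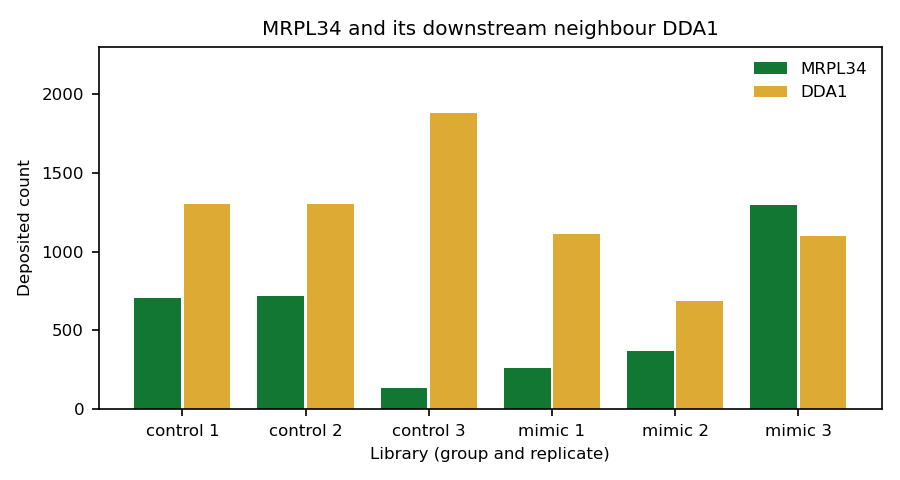
Bars give the raw counts of MRPL34 and of its downstream neighbour DDA1 in each of the 6 libraries. In control replicate 3 MRPL34 has 134 counts and DDA1 1879, while in mimic replicate 3 MRPL34 has 1294 and DDA1 1101.

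In 11 further loci a mitochondrial ribosomal protein gene shares its counts with other genes, so none of them can be given a value of its own. The locus that joins MRPL12, the stalk protein that also binds the mitochondrial RNA polymerase, with SLC25A10, a carrier, held 7376, 7647 and 7432 counts in control and 6032, 5735 and 6121 counts in mimic libraries. All mimic libraries were below all control libraries, and the locus fell by 0.25 on the log2 scale (SE 0.05, adjusted p = 0.00949, edgeR). The MRPL19 locus swung from 1945 to 4783 counts without following the groups. It was not called, and neither were the loci with MRPL20, MRPL30, MRPL38, MRPL42, MRPL46, MRPS16, MRPS17, MRPS28 and MRPS6. Pseudogene copies are a possible source of shared reads, and the 16 such loci held at most 36 counts in a library, against 134 to 6498 counts for the 62 genes.

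The 3′ UTRs of these genes are short. All 62 have an annotated one, with a median of 515 bases (range 32 to 5002), against 1397 bases over 9061 tested genes with a 3′ UTR. Searched on the transcript's strand, AGTACAA or GTACAAA occurred in 8 of the 62 (12.9%), against 17.2% of the tested genes. The joined word AGTACAAA occurred in 6 (9.68%), against 3.85% of tested genes. These are MRPS14, MRPS35, MRPL35, MRPL34, MRPS25 and MRPS18C, the last 3 named after their values were seen. Their 3′ UTRs are 1711, 1121, 3126, 471, 3923 and 1101 bases long, in that order. Only that of MRPL34 is shorter than the median of 515 bases over the 62 genes. Shares among genes of like 3′ UTR length were not compared.
MRPL34, chr19:17306584-17306613, plus strand: gaccaaagaacAGTACAAAgaacatccgtg
MRPS18C, chr4:83461855-83461884, plus strand: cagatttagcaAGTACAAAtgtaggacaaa
The MRPL34 and MRPS18C stretches are shown because they carry the same word in genes that did not pass the test. The site is in the 3′ UTR of 3 of 5 MRPL34 and 1 of 3 MRPS18C basic coding transcripts.

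Of the 6 genes with AGTACAAA, 3 rose and 0 fell, with a median log2 fold change of 0.60. Among the 349 tested genes with the word, 47.6% rose and 1.15% fell, with a median of 0.29. Of the 8 genes with either 7-base word, 3 rose and 0 fell (median 0.35), and among all tested genes with either 37.3% rose and 2.57% fell (median 0.20). MRPL27 and MRPS11, which hold GTACAAA without the longer word, had log2 fold changes of -0.07 and 0.01, and neither passed. The value for MRPS11 turned to -0.066 when scaled to library totals. Of the 54 genes with neither word, 2 rose (MRPS15 and MRPL3) and 3 fell, with a median of -0.01. Among tested genes with neither, 10.8% rose and 10.6% fell, with a median of -0.04. The 7-base words were picked out by an earlier scan of fold changes in these same data. The shares of rising genes among their holders are therefore a description, and 6 genes are too few to place a share closely.

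**Figure D5:**
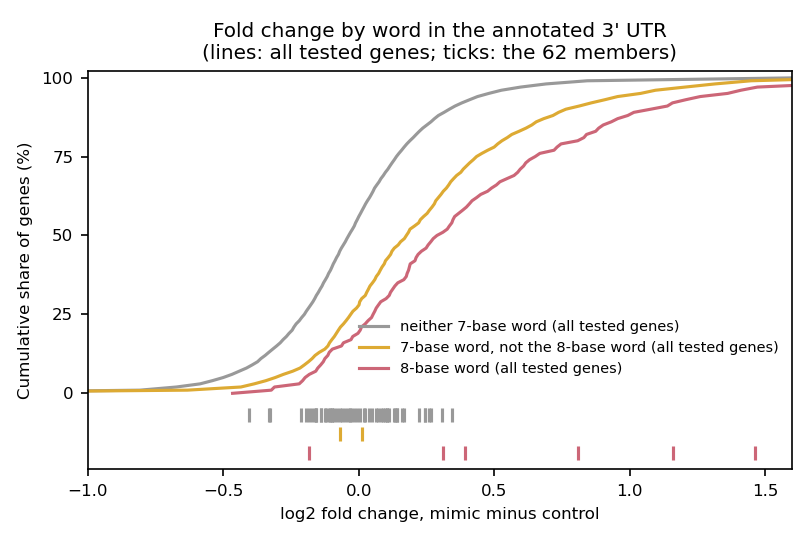
Cumulative share of tested genes by log2 fold change for genes whose 3′ UTR holds AGTACAAA, a 7-base word without it, or neither; ticks mark the 62 mitochondrial ribosomal protein genes in the same 3 classes. The ticks of the 8-base word include MRPS14, MRPS35 and MRPL35 at 1.46, 1.16 and 0.81, and MRPS18C at -0.18. The words were picked out by an earlier scan of these same fold changes.

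The seed of miR-5001-5p, bases 2 to 8, is printed in capitals because the series title names this microRNA (RefSeq, GRCh38.p14, chr2:232550530-232550553, minus strand, 24 bases).
miR-5001-5p: aGGGCUGGacucagcggcggagcu
Its match, CCAGCCC, occurred in 3′ UTRs of 7 of the 62 genes (11.3%), against 23.1% of tested genes. Of these 7, 1 fell (MRPL57) and 0 rose, with a median log2 fold change of 0.01. Among all 2094 tested genes with the match, 13% fell and 11.6% rose, with a median of -0.04. The MRPL57 stretch is shown with the match in capitals, since it is the lower gene that holds it, in the 3′ UTR of its only basic coding transcript.
MRPL57, chr13:21178228-21178256, plus strand: ggagttcaagaCCAGCCCaaccaacatgg
MRPL22 and MRPS21, the other lower genes, do not hold the match in the 3′ UTR used.

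Promoter windows from 250 bases before to 50 bases after the start, from RefSeq on GRCh38.p14, were matched for 54 of the 62 genes and searched on both strands. The ETS word CCGGAAG, which the GABP factor of nuclear genes for mitochondrial proteins can bind, was in 23 (42.6%), against 10.7% of all 27305 promoters and 20.3% of those of tested genes. The YY1 word AAGATGG was in 17 (31.5%), against 6.06% and 8.32%, and with CGG required after it in 9 (16.7%), against 1.28% and 3.26%. The NRF1 word GCATGCG was in 7 (12.96%), against 4.13% and 6.55%. With GC required before and C after it, the NRF1 word was in 1, MRPL17 (1.85%), against 1.36% and 2.48%, so its share depends on the form searched; the shorter forms were added after the longer ones had been counted. MRPS14 and MRPS35 hold none of these words in this window; MRPL35 was not among the genes matched.

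Other genes of mitochondrial gene expression moved in both directions, and the counts in each list stand against 13.6% higher and 8.63% lower calls over all tested loci. Of 6 genes listed as further mitochondrial ribosomal proteins under other symbols 0 passed (edgeR). This list includes OXA1L, a membrane insertase that is not itself a ribosomal protein. CHCHD1, of the small subunit, was at -0.29 on the log2 scale (adjusted p = 0.0555). Of 25 assembly genes 1 fell, RPUSD3, a pseudouridine synthase (-0.23 ± 0.07 SE, adjusted p = 0.0449). The assembly list had 0 calls with edgeR's own filter, with a filter of at least 1 count, with unnamed loci kept and with the replicate block, and 5 when scaled to library totals. Of 18 translation factors and related genes 5 rose and 0 fell, with a median of 0.03. The number called was 3 when scaled to library totals or with the replicate block, and ranged from 1, without control replicate 3, to 6 with a library left out. The 5 include MTRF1L, a release factor, at 6.88 FPKM in control and 10.7 FPKM in mimic libraries (0.72 ± 0.09, adjusted p = 0.0021), TRMU, a tRNA-modifying enzyme (0.21 ± 0.04, adjusted p = 0.0114), MTIF2, an initiation factor (0.28 ± 0.06, adjusted p = 0.0176), and PTRH2, a peptidyl-tRNA hydrolase (0.35 ± 0.09, adjusted p = 0.0315).

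The mitochondrial tRNA synthetase list had 18 genes, among them the amidotransferase subunits GATB, GATC and QRSL1, which are not synthetases. Of the 18, 2 rose and 4 fell, with GATB among those that fell (-0.46 ± 0.12 SE, adjusted p = 0.0307, edgeR). The number called was 3 with the replicate block and with a filter of at least 1 count. It was also 3 without control replicate 1, 2 or 3 or mimic replicate 2. WARS2, for tryptophan went from 6.77 to 11.3 FPKM (0.82 ± 0.08 SE, adjusted p = 0.000645, edgeR), and RARS2, for arginine, rose by 0.51 ± 0.10 (adjusted p = 0.0113). PARS2, for proline, had -0.47 ± 0.09 (adjusted p = 0.0106) and TARS2, for threonine, -0.29 ± 0.07 (adjusted p = 0.0241). The transcription and RNA list had 19 genes, among them the proteases LONP1 and CLPP. Of the 19, 1 rose and 3 fell, and 2 in all were called without control replicate 2 or 3. TFB2M, a transcription factor of the mitochondrial genome, rose by 0.36 ± 0.08 (adjusted p = 0.0186), while POLRMT, the mitochondrial RNA polymerase, had -0.33 ± 0.06 (adjusted p = 0.00826), LONP1, a protease, -0.36 ± 0.06 (adjusted p = 0.00594) and FASTK, -0.48 ± 0.11 (adjusted p = 0.0233).

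Mitochondrially encoded messenger RNAs were taken from single-gene loci, which gave 5: MT-CO1, MT-CO2, MT-ND1, MT-ND3 and MT-ND6. The others have no value of their own here. Of the 5, 1 fell, MT-CO1, a cytochrome oxidase subunit (-0.16 ± 0.04 SE, adjusted p = 0.0371, edgeR), and of the 2 ribosomal RNAs 0 passed. Mitochondrially encoded genes took 5.05, 5.04 and 5.14% of counts in control and 4.47, 4.18 and 4.49% in mimic libraries, with no overlap. This share is not scaled by TMM, and its part in the values above was not tested. Of 8 tested regulators of mitochondrial biogenesis 2 rose, GABPB1, a subunit of GABP (0.72 ± 0.10, adjusted p = 0.0037), and PPARGC1B, a coactivator (0.40 ± 0.07, adjusted p = 0.00986). Over all these lists, 12 tested genes hold either 7-base word in the 3′ UTR, of which 3 rose (WARS2, GABPB1 and PPARGC1B) and 0 fell, with a median log2 fold change of 0.08. Of the 4 that hold AGTACAAA, these 3 rose, and MALSU1, an assembly factor of the large subunit, was at 0.10 (adjusted p = 0.711). The other 8 that hold a 7-base word were not called, with GABPA, the DNA-binding subunit of GABP, at -0.06 (adjusted p = 0.659) and TFB1M, an rRNA methyltransferase, at -0.42 (adjusted p = 0.0752). MALSU1, GABPA and TFB1M were named after their values were seen. Among all tested genes, 37.3% of those with either 7-base word and 47.6% of those with AGTACAAA rose. The words were picked out by an earlier scan of fold changes in these same data, so these counts are a description.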

How the data were processed

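Per the labels, polyadenylated RNA was sequenced in 3 mimic and 3 control libraries. Per the submitters' processing notes, cutadapt 1.9, FastQC and GRCh38 (hg38) were used; not given in the sources used here were the aligner, counter, annotation and strandedness. The authors deposited raw counts and FPKM for 66381 loci, per the file headers; the FPKM equal counts scaled by locus length and library total. The 38792 loci that name no gene (2.46 to 2.70% of counts) were left out, and 1248 loci name several genes (10.2 to 11.0%).

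Counts were tested with edgeR 4.0.16 (glmQLFit and glmQLFTest, TMM, R 4.3.3), two-sided, on 11260 loci that reached an FPKM of 1 in at least 3 libraries, at a Benjamini-Hochberg adjusted p under 0.05. The common biological coefficient of variation was 14.0%. The script was tested on simulated data. Fold changes are on the log2 scale, control subtracted from mimic, and each SE is the absolute fold change over the square root of F. Levels are FPKM, with SD over 3 libraries.

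The genes, lists and tests were chosen with earlier results of these data known. Library values are given for up to 6 called genes per direction with the smallest p and for the MRPS18 genes; MRPL12, MRPL45, MRPL58, MRPS12, MRPS36, the highest and lowest gene and genes in shared loci are named by rule, as are up to 4 called genes of each list by smallest p. 3′ UTRs are those of the GENCODE 29 basic protein-coding transcript with the longest one. Alternatives were scaling to totals, DESeq2 size factors, quantile normalization, DESeq2 1.42.0, limma 3.58.1 on log2(FPKM + 1) and log2(FPKM + 0.1), other filters, unnamed loci kept, a replicate block and each library left out. Python 3.11.15, pandas 2.3.3 and matplotlib 3.10.9 were used. MRPL9, MRPL33, MRPS5 and MRPS24 were not analysed here. A sequence stretch that is withheld is not reported here.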

Additional observations from a re-analysis of the deposited data

How the results depend on the processing

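MRPS14, MRPS35, MRPL35 and MRPL57 passed under all 17 alternatives, with adjusted p of at most 0.0054, 0.00255, 0.00616 and 0.047. MRPL22 failed only without control replicate 3 (adjusted p = 0.0523), while MRPS21, MRPL3 and MRPS15 failed in 10, 12 and 8 alternatives. The cause of the differences listed here was not tested.

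Scaling to library totals, in place of TMM, gave 1136 higher and 1783 lower loci in the whole table (1534 and 972 with TMM). The mitochondrial ribosomal protein genes then gave 3 higher and 5 lower calls with a median of -0.070, against -0.092 for all tested loci, and MRPS11, MRPS12 and MRPS33 turned to -0.066, -0.010 and -0.032. Called in the lists were 2 other ribosomal proteins, 5 assembly genes, 3 translation factors and 2 mitochondrial messenger RNAs. limma on log2(FPKM + 1) gave 1707 lower loci, 6 lower genes and a median of -0.065, with MRPS11, MRPS12 and MRPS33 at -0.056, -0.0068 and -0.023. limma on log2(FPKM + 0.1) gave 1680 lower loci, 6 lower genes and a median of -0.073, with these genes at -0.065, -0.0070 and -0.031. Both limma fits called 1 other ribosomal protein, 5 assembly genes, 3 translation factors and 2 mitochondrial messenger RNAs.

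Quantile normalization called 1 other ribosomal protein and 2 mitochondrial messenger RNAs, and DESeq2 called 1, 4 assembly genes and 2 messenger RNAs. An FPKM minimum of 5 called 1 other ribosomal protein, 2 messenger RNAs and 1 regulator, and put MRPS11 at -0.014. Assembly genes had 0 calls with edgeR's own filter and with unnamed loci kept. A filter of at least 1 count gave 5 called genes, 3 of them higher, with 0 assembly genes and 3 genes of the tRNA synthetase list.

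Deviations of equally numbered libraries correlated at -0.00863, 0.0599 and -0.0503, within the range of unequally numbered ones, -0.0617 to 0.0661. Such values cannot show whether libraries were prepared in pairs. With the replicate block 5 genes were called, 3 of them higher, with 0 assembly genes, 3 translation factors and 3 genes of the tRNA synthetase list.

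With each library left out in turn, calls ranged from 1576 to 2222 in the whole table and from 503 to 854 among lower loci. Called mitochondrial ribosomal protein genes ranged from 4 to 7, higher ones from 3 to 5 and lower ones from 1 to 3, the lowest being without control replicate 3. In the lists the ranges were 0 to 1 for other ribosomal proteins, 0 to 2 for assembly, 1 to 6 for translation factors, 3 to 6 for tRNA synthetases, 2 to 5 for transcription and RNA genes and 0 to 1 for mitochondrial messenger RNAs. Log2 fold changes ranged from -0.042 to 0.099 for MRPS11, -0.0011 to 0.16 for MRPS12, -0.062 to 0.15 for MRPS33, -0.10 to 0.074 for MRPL58, -0.62 to 0.77 for MRPL34 and -0.50 to 0.20 for MRPL10.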
